A study of Mus musculus with 3 samples.

Results

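The respiratory chain genes described here are the 93 genes, of 22843 in the deposited table, whose symbols mark them as subunits of complexes I to V and that had at least 1 UMI (unique molecular identifier, one counted transcript) in each library. Membership was set by symbol alone: 13 members are encoded in mitochondrial DNA and 80 in the nucleus. The nuclear members are 37 subunits of complex I, 4 of complex II, 8 of complex III, 16 of complex IV and 15 of complex V. The mitochondrially encoded members are 7 of complex I, 1 of complex III, 3 of complex IV and 2 of complex V. A further gene with a matching symbol, Cox4i2, had no UMI in the control library and was left out.

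The series measured single-cell RNA in mouse testis cells after knockdown of the long noncoding RNA Gm4665. AAV9 carrying a red fluorescent protein and either a control hairpin (shCtrl) or a hairpin against Gm4665 (shRNA1 or shRNA2) was injected into testes of ICR mice at postnatal day 21, with shCtrl in one testis and a Gm4665 hairpin in the other testis of a mouse. Red cells were sorted after somatic cells had been depleted, and each condition pooled cells of 3 mice into 1 library. All 3 groups therefore share the strain, the virus, the reporter and the sort, and differ in the hairpin. No source used here says which animals gave the control cells.

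The chain passes electrons from NADH (complex I) and succinate (complex II) through complex III and cytochrome c to oxygen at complex IV, and complex V uses the resulting proton gradient to make ATP. Complexes I, III, IV and V combine subunits read from mitochondrial DNA with many subunits made from nuclear genes, and complex II is entirely nuclear. Germ cells are known for replacing several general subunits with testis forms during meiosis, and mitochondria are remodelled and partly lost as spermatids elongate.

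With 1 library per group there is no replicate check and no p-value. Intervals are exact Poisson or exact binomial (Clopper-Pearson) intervals at 95% and cover counting error only. Levels are UMIs relative to all UMIs of the library or class (CPM, counts per 1000000). A 3′ UMI is 1 transcript whatever its length, so levels were not divided by length. Genes entered the comparison at a mean of 10 CPM and 30 UMIs in all, and a gene was called higher or lower where both hairpins differed from shCtrl by at least 1.5-fold in the same direction, on log2 of CPM plus 1. That mean is over the 3 libraries, so a gene under 10 CPM in shCtrl entered only through the hairpin libraries and could not be called lower. Among the genes named below as higher, this holds for mt-Nd4l, Cox7b, Ndufb11, Ttc19, Etfb, Ssbp1, Mterf4 and Coq7 over all cells. It also holds for mt-Nd3 in both spermatid classes. The 2 hairpin libraries share 1 control library, so a chance deviation of that library moves both folds together.

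The libraries held 1418, 1732 and 1873 cells (shCtrl, shRNA1 and shRNA2, the order used throughout) and 40405313, 38330044 and 44640351 UMIs. Gm4665 was at 311, 52.8 and 79.1 CPM, lower with both hairpins. Median UMIs per cell were 19366, 14667.5 and 16518. Cell barcodes occurring in more than 1 library numbered 18, and the 2 profiles of such a barcode correlated at a median Pearson r of 0.60 over genes. Over all cells, 806 of 7068 genes compared were called higher (11.4%) and 351 lower (4.97%), and the median gene stood at log2 0.23 and 0.25. Cells were grouped by clustering without the members, and each class is named for the markers it carries, not from a sort. Spermatogonia made up 3.95%, 8.83% and 9.66% of cells, elongating and condensing spermatids 42.3%, 35.7% and 24.6%, and leukocytes, which the sort should have removed, 1.34%, 5.31% and 9.66%. Leukocyte markers summed to 75.5, 131 and 895 CPM within spermatogonia. A cluster of 335 cells carried markers of both Sertoli cells and late spermatids and is described by that mixture.

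Mouse mitochondrial DNA is compact, and 3 pairs of members share bases on the same strand, which bears on how their counts can be told apart. The stretches below are the shared bases of 2 of them (mm10, mitochondrial chromosome, plus strand). Capitals mark the start codon of the downstream gene and the stop codon of the upstream gene. The sequences come from the GENCODE transcripts.
mt-Atp8 end and mt-Atp6 start, chrM:7927-7969: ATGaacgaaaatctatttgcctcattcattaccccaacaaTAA
mt-Nd4l end and mt-Nd4 start, chrM:10167-10173: ATGcTAA
The first shared stretch is 43 bases and the second 7; mt-Atp6 and mt-Co3 share 1 base. mt-Nd5 and mt-Nd6 overlap by 14 bases on opposite strands, and no source used here says whether reads were counted by strand. The counts of mt-Atp8 and mt-Nd4l, the small upstream partners, are uncertain, and how far the shared bases add to this was not tested.

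Several cytochrome c oxidase subunits (complex IV) have a testis form and a general form, whose shares by germ cell class are given below. The 120 bases upstream of the annotated start of 2 such pairs are shown 5′ to 3′ on the gene's strand (RefSeq, GRCm38.p6), testis form first. Capitals mark a match to the ETS motif CCGGAAG or its reverse complement.
Cox6b2, chr7:4753095-4753214, minus strand: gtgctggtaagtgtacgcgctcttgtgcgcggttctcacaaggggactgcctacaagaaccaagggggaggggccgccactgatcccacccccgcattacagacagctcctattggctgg
Cox6b1, chr7:30626115-30626234, minus strand: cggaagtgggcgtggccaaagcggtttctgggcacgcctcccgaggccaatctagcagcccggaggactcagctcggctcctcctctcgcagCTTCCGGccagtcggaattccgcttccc
Cox7b2, chr5:71548206-71548325, minus strand: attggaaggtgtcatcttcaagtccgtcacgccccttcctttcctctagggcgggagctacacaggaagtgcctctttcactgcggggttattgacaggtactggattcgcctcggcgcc
Cox7b, chrX:106015580-106015699, plus strand: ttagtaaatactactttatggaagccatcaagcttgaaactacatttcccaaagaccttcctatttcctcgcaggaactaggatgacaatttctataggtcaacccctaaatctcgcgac
Of these 4 stretches, that of Cox6b1 held the motif. Promoters of 300 bases were in the table for 65 nuclear members, and 3 motifs were searched on both strands. CCGGAAG, the core bound by ETS factors such as GABPA, was in 16 of the 65 (24.6%) and in 9.93% of 27025 genes. A 10-base form of the NRF1 site was in 18 (27.7%) and in 7.0% of genes, and TGACGTCA, the cyclic AMP response element, in 4 (6.15%) and in 2.03%. A match is a description of these letters and not a bound site.

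Over all cells, RNA of the mitochondrially encoded members was a larger part of the UMIs in both knockdown libraries. It made up 0.521% of UMIs in shCtrl, 0.855% with shRNA1 and 1.11% with shRNA2, and the median share per cell was 0.0772%, 0.287% and 0.535%. Of the 12 members compared, 11 were called higher and none lower, with medians of log2 0.78 and 1.13. The remaining 1 of the 13, mt-Nd6, the only one read from the opposite strand, had 16, 23 and 52 UMIs and was not compared.

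Among complex I members, mt-Nd1, a core subunit of the membrane arm, was at 359, 733 and 887 CPM. mt-Nd3, a small membrane subunit near the junction of the 2 arms, stood at 19.5, 70.4 and 87.5 CPM, which is log2 1.80 and 2.11 and the largest difference among the 12. mt-Nd2 was at 98.9, 185 and 237 CPM and mt-Nd4 at 278, 474 and 604. The control library was the lowest for each of these members. The same order held for mt-Cytb, the haem-bearing core of complex III, at 439, 688 and 1013 CPM. In complex IV, mt-Co1, which holds the site of oxygen reduction, was at 978, 1511 and 1643 CPM (log2 0.63 and 0.75), while mt-Co2, which receives electrons from cytochrome c, was at 544, 973 and 1271 (log2 0.84 and 1.22). mt-Co3 was at 1109, 1823 and 2464 CPM. In complex V, mt-Atp6, part of the proton channel, was the most abundant member at 1344, 2019 and 2808 CPM. mt-Atp8 was at 10.9, 16.1 and 17.6 CPM, log2 0.53 and 0.65, which misses the call with shRNA1. mt-Nd4l was at 7.55, 17.1 and 15.4 CPM and mt-Nd5 at 24.8, 43.5 and 42.3, so these were no higher with shRNA2 than with shRNA1, unlike the other compared members.

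**Figure D1:**
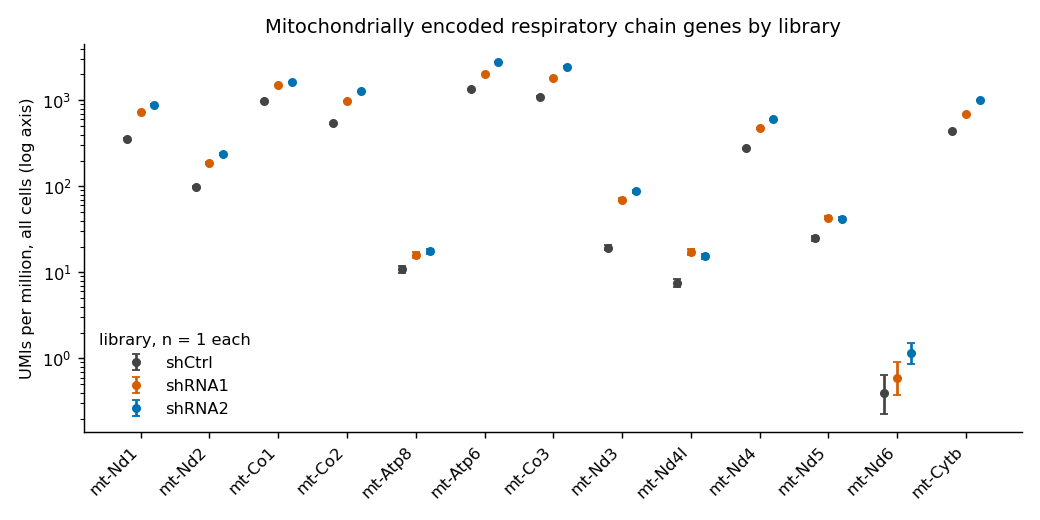
Level of each of the 13 mitochondrially encoded members over all cells in the 3 libraries (CPM, log axis, ordered along the mitochondrial chromosome). Points are single libraries and bars 95% Poisson intervals for counting error. The shCtrl point is the lowest of the 3 for every gene, and mt-Nd3 shows the widest gap, from 19.5 to 87.5.

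The nuclear members also made up a larger part of the UMIs, by less, at 1.63%, 2.09% and 2.45%. Of 78 compared, 76 were above shCtrl with both hairpins and 60 of them lay above the median of all genes with both, with medians of log2 0.36 and 0.68. The median of all genes was itself above shCtrl, at log2 0.23 and 0.25. How many of all genes lay above shCtrl, or above that median, with both was not counted. At 1.5-fold, 12 of the 78 were called higher, near the 11.4% of all genes called higher, and none lower. At 2-fold, 2 mitochondrially encoded and 3 nuclear members were higher and none lower, beside 1.23% and 0.495% of all genes. By complex, 6 of 37 were called in complex I, none of 4 in complex II, 1 of 8 in complex III, 4 of 14 in complex IV and 1 of 15 in complex V. Cox7a1 and Cox6a2, the forms of heart and skeletal muscle, were too low to compare at no more than 1.66 CPM in any library.

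In complex I the widest gaps were those of Ndufa4, a small subunit now placed with complex IV, at 22.1, 47.5 and 84.9 CPM, and of Ndufb11, an X-linked subunit of the membrane arm, at 8.09, 14.2 and 27.7. Ndufa13, another complex I subunit, went the other way at 412, 376 and 358 CPM (log2 -0.13 and -0.20), within the 1.5-fold bound, and was the only compared nuclear member below shCtrl with both hairpins. Ndufa7, the most abundant of complex I, stood at 480.4, 573 and 594 CPM. In complex II, Sdhb, the iron-sulfur subunit, was at 106, 129.8 and 141 CPM and Sdha, the flavoprotein, at 41.0, 55.6 and 58.4. In complex III, Uqcrq was at 575, 737 and 797 CPM and Uqcrc1, a core subunit, at 252, 288 and 279, so that neither reached 1.5-fold. In complex IV, Cox8a, the general form of subunit VIII, was at 33.1, 78.8 and 125 CPM (log2 1.23 and 1.89), and Cox7b, the general form of subunit VIIb, at 4.78, 11.2 and 32.6 (log2 1.08 and 2.54). Cox8c, the testis form of subunit VIII and the most abundant nuclear member, was at 1028, 1436 and 1672 CPM (log2 0.48 and 0.70), and Cox7a2, the general form of subunit VIIa, at 837, 1013 and 1046. In complex V, Atp5k, the subunit e that holds the synthase in dimers, was at 115, 206 and 254 CPM (log2 0.83 and 1.13), while Atp5e was at 405, 474 and 649 and Atp5b, the catalytic beta subunit, at 356, 425 and 451.

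**Figure D2:**
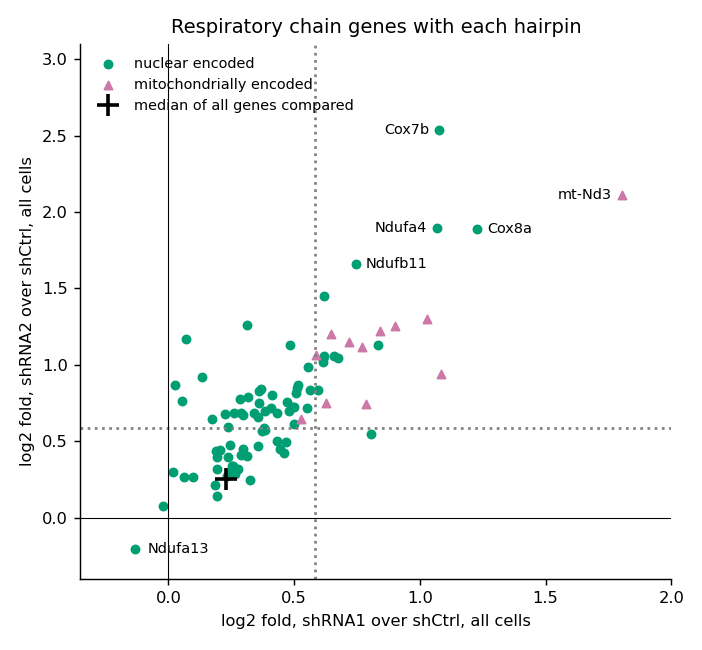
Log2 fold over shCtrl of the 90 members compared over all cells, shRNA1 on the horizontal and shRNA2 on the vertical axis; dotted lines mark 1.5-fold. The cross is the median of all 7068 genes (0.23, 0.25), and 76 nuclear and all 12 mitochondrially encoded members lie above 0 with both hairpins; Ndufa13 is the only one below 0 with both.

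These sums mix classes whose shares differed between libraries, and the call counts moved with the mix. With classes weighted to the mix of shCtrl, 1 of 12 mitochondrially encoded and 1 of 78 nuclear members were called higher, with medians of log2 0.46 and 0.34 for the former and 0.17 and 0.24 for the latter. Without the cells that are not germ cells, the counts were 11 and 5. With factors from the trimmed mean of M values, which move the median gene to log2 -0.04 and -0.09, the counts were 4 and 3, and 50 of 78 nuclear members rather than 76 were above 0 with both hairpins. In bulk sums of this kind, more cells of a type and more RNA per cell cannot be told apart.

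The germ classes differed far more from each other than the libraries did. The mitochondrially encoded share of UMIs was 4.52%, 4.93% and 4.57% in spermatogonia, 2.20%, 2.68% and 2.76% in leptotene to zygotene spermatocytes, 0.785%, 0.820% and 0.826% in pachytene to diplotene spermatocytes, 0.148%, 0.360% and 0.246% in round spermatids, and 0.153%, 0.290% and 0.280% in elongating and condensing spermatids. Each library showed the fall down to round spermatids. All 12 compared members were highest in spermatogonia in all 3 libraries. For mt-Atp6 the shCtrl levels were 12388.5 CPM in spermatogonia, 6270.3 in leptotene to zygotene, 1748 in pachytene to diplotene spermatocytes, 367 in round and 396 in elongating spermatids. Classes were made from the same cells, so this order is a description without a test, although no member was used in the clustering.

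The nuclear members followed another order. Their summed share was 3.21%, 3.55% and 3.54% in spermatogonia and was highest in leptotene to zygotene spermatocytes, at 3.71%, 4.34% and 4.40%. It was 2.80%, 2.81% and 3.00% in pachytene to diplotene spermatocytes, 1.68%, 2.0% and 2.08% in round and 0.891%, 1.11% and 1.13% in elongating spermatids. From spermatogonia to pachytene the nuclear share changed little beside the mitochondrially encoded share. Of the 78 compared, 64 were lowest in elongating spermatids in all 3 libraries. The class with the highest level in shCtrl was spermatogonia for 34, leptotene to zygotene for 31 and pachytene to diplotene for 13, and 65 peaked in 1 of the first 2 classes in all 3 libraries. How many of all genes were lowest in elongating spermatids, or highest in either of those first classes, was not counted. The 14 listed markers of elongating spermatids summed to 133696, 102053 and 92721 CPM over all cells, and levels are relative to all UMIs. Their part in the low levels of members there was not tested.

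**Figure D3:**
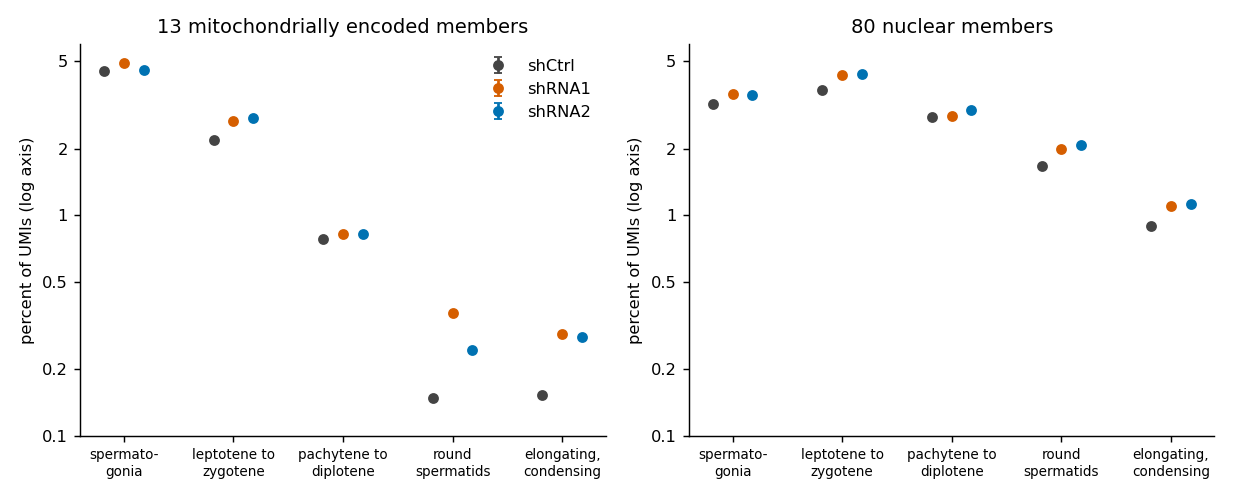
Percent of UMIs (log axes) from the 13 mitochondrially encoded (left) and 80 nuclear members (right) in the 5 germ classes of each library; bars are 95% binomial intervals, mostly narrower than the points. The mitochondrially encoded share falls from about 4.52% to 0.148% in shCtrl, the nuclear share from 3.71% to 0.891%.

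The widest spans over classes in shCtrl belonged to Ndufa4, Cox8a, Sdhc, Cox7b and Sdhd. Ndufa4 went from 488 CPM in spermatogonia to 72.3 in leptotene to zygotene and 4.03 in pachytene to diplotene spermatocytes, and Cox8a from 668 to 31.6 and 13.6. Both are general forms that a related gene accompanies in later germ cells. The membrane anchors of complex II behaved differently from its catalytic subunits. Sdhc was at 108 CPM in spermatogonia, 131 in leptotene to zygotene, 9.54 in pachytene to diplotene spermatocytes and 1.36 in round spermatids, and Sdhd at 82.8, 139, 53.5 and 2.73, whereas Sdhb was at 245, 198, 200.3 and 122. In round spermatids of shRNA1 and shRNA2, Sdhc was at 2.22 and 3.67 CPM and Sdhd at 2.81 and 4.34, so the drop was present in all 3 libraries. Ndufa13 ran against the common order: 536, 507, 182, 375 and 498 CPM over the 5 classes in shCtrl, lowest in pachytene to diplotene cells in all 3 libraries.

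The testis forms of complex IV had a larger share in leptotene to zygotene cells than in the class named spermatogonia. A spermatogonial cluster of 28, 58 and 68 cells, led by Prss50, Rhox13 and Stra8, had leptotene to zygotene as its second class. The spermatogonial shares may therefore mix stages, and whether the change begins inside that class was not tested. Cox6b2, the testis form of subunit VIb, gave 36.5%, 40.3% and 43.2% of the UMIs of Cox6b2 and Cox6b1 in spermatogonia and 95.2%, 95.7% and 95.5% in leptotene to zygotene spermatocytes. Cox8c gave 25.7%, 35.1% and 42.7% of the pair with Cox8a in spermatogonia and 98.8%, 99.1% and 98.8% in the next class. Cox7b2 already gave 80.2%, 79.1% and 78.9% of the pair with Cox7b in spermatogonia and at least 99.9% in each library's leptotene to zygotene cells. All 9 combinations of pair and library passed from below to above 90% at that step and stayed above it. In spermatogonia the Cox8c share had intervals that did not overlap between libraries (22.6% to 29.0% in shCtrl), while those of Cox7b2 overlapped. In leukocytes, which should lack the testis forms, Cox6b2 still gave 22.1%, 41.0% and 33% of its pair and Cox8c 10.9%, 33.6% and 28.7%, at median depths of 14047, 9685.5 and 13230 UMIs, as a measure of background. The spermatogonial shares were above these in shCtrl and shRNA2 and close to them with shRNA1, and their differences between libraries are not read as a change; the part of free RNA in them was not tested. The values of 95.2% and more in later cells are far from that background, as are those of Cox7b2 in spermatogonia beside 15.7%, 36.1% and 22.8% in leukocytes.

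**Figure D4:**
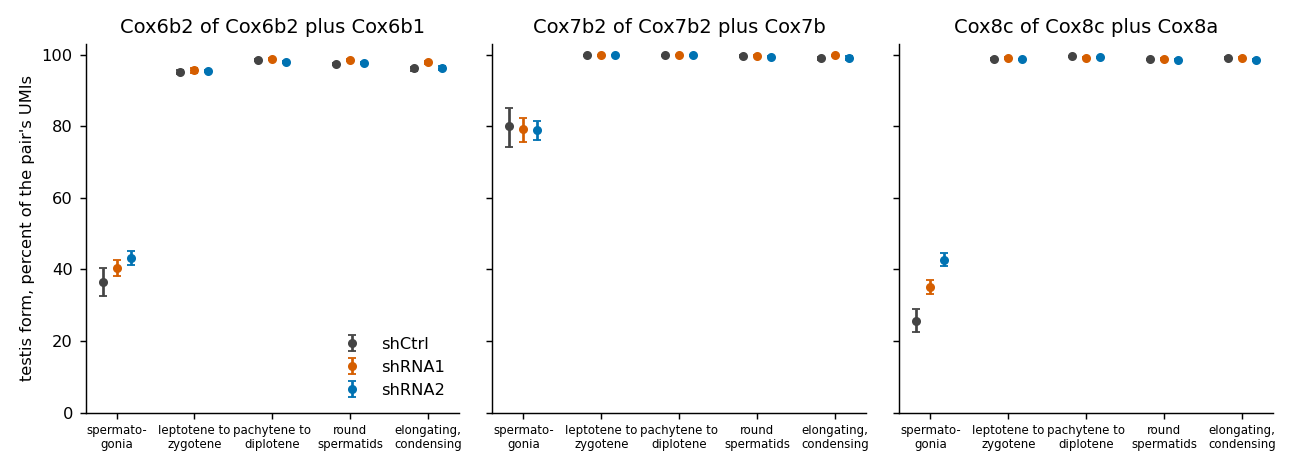
Share of the testis form among the UMIs of each complex IV pair in the 5 germ classes, by library, with 95% binomial intervals. Spermatogonia lie between 25.7% and 80.2%, and every later class of every library lies at 95.2% or above.

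Of 4 other related pairs, Ndufa4l2 and Ndufa4 turned over a class later. Ndufa4l2 gave 2.43%, 1.89% and 2.39% of the pair with Ndufa4 in spermatogonia, 22.8%, 21.9% and 21.9% in leptotene to zygotene and 95.5%, 92.2% and 91.7% in pachytene to diplotene spermatocytes. Cyct, the testis cytochrome c, gave 17.0%, 13.9% and 15.8% of the pair with Cycs in spermatogonia and 87.1%, 87.9% and 87.6% in leptotene to zygotene cells. Slc25a31, the ADP/ATP carrier of germ cells, already gave 91.6%, 88.2% and 89.4% of the pair with Slc25a4 in spermatogonia. Pdha2, the autosomal testis copy of the X-linked pyruvate dehydrogenase subunit Pdha1, gave 71.7%, 74.3% and 66.9% there, beside 28.6%, 63.1% and 41.9% in leukocytes, and at least 99.2% in the later germ classes. The intervals of spermatogonia and leukocytes overlapped with shRNA1.

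The sex chromosomes are known to be silenced in pachytene spermatocytes, and the 3 X-linked members were at low levels by then. Cox7b was at 53.6, 63.8 and 71.8 CPM in spermatogonia and 0.70, 0.56 and 1.34 in leptotene to zygotene cells. Ndufb11 was at 106, 88.8 and 108 CPM in spermatogonia and 9.82, 7.28 and 7.70 in the next class. Ndufa1, a complex I subunit, still stood at 238, 260.3 and 304 CPM in leptotene to zygotene and was at 11.4, 15.6 and 20.3 in pachytene to diplotene cells. All 3 were lower in pachytene than in spermatogonia in each library. Some members not on the X chromosome also fell steeply between these classes in shCtrl. Cox8a went from 668 to 13.6 CPM and Ndufa4 from 488 to 4.03, while Cox4i1 went from 1791 to 1117. The part of X silencing in the drop was not tested. Cox7b2, the testis form of Cox7b, lies on chromosome 5 and was at 1098, 1323 and 1334 CPM in leptotene to zygotene cells, where Cox7b was nearly absent.

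Within classes the hairpin libraries lay closer to shCtrl than over all cells. In spermatogonia the mitochondrially encoded median was log2 0.16 and 0.13 with 1 of 12 called higher (5.82% of all genes compared there were, and 5.28% were called lower), and the nuclear median 0.09 and 0.10 with 3 of 79. One of the 2 spermatogonial clusters was also led by Mgp and Dcn, genes of mesenchymal cells. A finer clustering held a cluster of 69 cells (11, 24 and 34) led by the same genes. It was named for myoid and mesenchymal markers, with spermatogonia as its second class. The spermatogonial clusters there held 28 and 17 shCtrl cells, under the 50-cell minimum for a class. How far such cells shaped the spermatogonial values was not tested. In leptotene to zygotene cells the medians were 0.43 and 0.35 with 1 of 12 (2.5% of all genes, and 6.13% lower), and 0.14 and 0.19 with 1 of 76. In pachytene to diplotene cells the medians were 0.28 and 0.14 with 1 of 12 (1.3% of all genes, and 1.12% lower), and 0.00 and 0.09 with 1 of 74, and a cluster of 61 cells among them (6, 27 and 28) held 8.15%, 7.55% and 6.56% mitochondrially encoded UMIs. Spermatids stood apart: 9 of 10 compared mitochondrially encoded members were called higher in round spermatids, where 2.8% of all genes were, with medians of log2 1.41 and 0.76, and 10 of 10 in elongating spermatids, where 10.5% were, with 1.02 and 0.89. Nuclear members called higher were 4 of 73 in round (medians 0.24 and 0.28) and 11 of 70 in elongating spermatids (0.34 and 0.35). No member was called lower in any of the 5 germ classes. Atp5k was at 89.0, 139 and 143 CPM in round and 59.3, 99.2 and 106 in elongating spermatids, and was called higher in both and in spermatogonia. Cox7b2 (89.6, 178 and 185 CPM) and Cox8c (385, 641 and 743 CPM) were called higher in elongating spermatids.

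The spermatid differences moved with which clusters made up the class. Round spermatids included a cluster of 26, 131 and 44 cells led by Cd27, with a median of 9339 UMIs, whose mitochondrially encoded share was 1.51%, 1.71% and 2.07%, while the other 4 round clusters lay between 0.0742% and 0.302%. Elongating spermatids included a cluster of 74, 275 and 172 cells at 0.514%, 0.592% and 0.611%, and the other 3 lay between 0.0680% and 0.196%. With clusters weighted to the mix of shCtrl within a class, the mitochondrially encoded medians were log2 0.23 and 0.45 in round and 0.24 and 0.24 in elongating spermatids and no such member was called in either. The nuclear medians were 0.14 and 0.17, and 0.27 and 0.37, with 0 of 72 and 4 of 69 called. In pachytene to diplotene cells the weighted mitochondrially encoded medians were log2 0.19 and -0.01 with none called. This weighting was chosen after seeing the data.

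Cluster by cluster, the nuclear share was the steadier of the 2 quantities. In 15 clusters with at least 25 cells in every library, the nuclear share was above shCtrl with both hairpins in 14, and over all 15 the ratio to shCtrl ran from 0.992 to 1.31 with shRNA1 and from 1.06 to 1.47 with shRNA2. It reached 1.5-fold with both in none. All clusters draw on the same 3 libraries and 1 control, so they are not separate checks. How often the share of other genes lay above shCtrl in these clusters was not counted. The mitochondrially encoded share was above shCtrl with both in 6, below with both in 4 and at 1.5-fold higher with both in none. The cells with Sertoli and late spermatid RNA (143, 76 and 116 cells) had 0.613%, 0.231% and 0.385% in summed UMIs. Their median share per cell lay closer together, at 0.191%, 0.143% and 0.162%, and 20, 6 and 13 of these cells were over 1%. In the summed UMIs 6 of 11 compared mitochondrially encoded members were called lower, beside 2.52% of all genes. Of the nuclear members 3 of 74 were called higher, beside 6.29% of all genes, with medians of log2 0.20 and 0.30. The summed shares of the 2 genomes' members thus lay on opposite sides of shCtrl in these cells. Their 10 Sertoli markers summed to 1056, 530.2 and 560 CPM, also highest in shCtrl, and their part in the result was not tested. A finer clustering split the class by Sertoli markers. The cluster rich in them (92, 41 and 54 cells) had mitochondrially encoded shares of 0.899%, 0.378% and 0.766%, with markers at 1701, 854 and 1174 CPM. The other (51, 35 and 62 cells) had 0.220%, 0.0948% and 0.162%, with markers at 168, 229.6 and 198 CPM. The mitochondrially encoded share was highest in shCtrl in both clusters. The part of Sertoli RNA in either was not tested. This split was chosen after seeing the data.

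**Figure D5:**
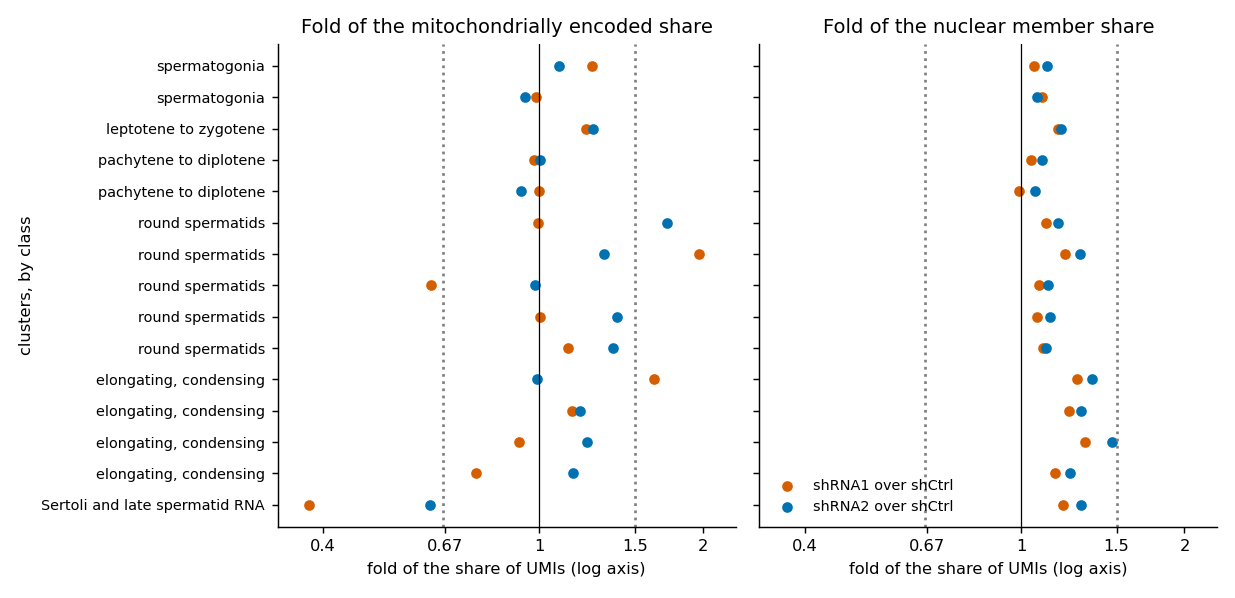
Fold over shCtrl of the mitochondrially encoded (left) and nuclear (right) share of UMIs in each of 15 clusters, by class, with both hairpins; dotted lines mark 1.5-fold either way. Nuclear folds run from 0.992 to 1.47, mitochondrially encoded folds from 0.377 to 1.97 on both sides of 1.

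The make-up of the mitochondrially encoded RNA, taken as shares of its own UMIs, also differed between libraries. mt-Nd3 was 0.374%, 0.823% and 0.789% of the mitochondrially encoded UMIs over all cells and 0.485%, 1.05% and 1.06% in spermatogonia. It was called higher in all 5 germ classes, at 219, 516 and 483 CPM in spermatogonia, 79.98, 222 and 209 in leptotene to zygotene, 21.1, 57.7 and 36.0 in pachytene to diplotene, 3.83, 22.8 and 13.1 in round and 4.97, 18.1 and 14.5 in elongating cells. With clusters weighted to the mix of shCtrl its log2 folds were 1.18 and 1.09 in spermatogonia, 1.46 and 1.37 in leptotene to zygotene, 1.24 and 0.50 in pachytene to diplotene, 1.18 and 1.41 in round and 0.97 and 0.68 in elongating cells. The call was lost in pachytene to diplotene cells with shRNA2, and in both spermatid classes the weighted level was under the minimum for a comparison. In the 15 clusters its share of mitochondrially encoded UMIs was above shCtrl with both hairpins in 14 and below with both in none. mt-Co2 was above in 13 and below in none, and mt-Atp6 was above in none and below in 12. mt-Co1 was below in 9 and above in 1, with medians over clusters of 19.3%, 18.7% and 16.0%. mt-Cytb was above in 6 and below in 3. In leukocytes, not compared because shCtrl held 19 of them, mt-Nd3 was at 199.7, 185 and 233 CPM. mt-Nd3, mt-Co1, mt-Co2 and mt-Atp6 each have a nuclear copy in the annotation that is near identical over the last 300 bases, none of which is a gene of the table, and no source used here says how reads matching both were counted.

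Genes that build and feed the chain were counted by lists, compared over all cells with the same rule and set beside the 11.4% of all genes called higher. Of 30 compared assembly factors 4 were called higher and none lower (medians log2 0.31 and 0.63), among them Ttc19, which acts in complex III assembly, at 5.96, 11.4 and 13.9 CPM, and Cox11, which brings copper to complex IV, at 27.9, 47.0 and 46.8. Of 13 cytochrome c and carrier genes 2 were called, Slc25a5, the general ADP/ATP carrier, at 12.3, 25.2 and 81.8 CPM, and Etfb, an electron transfer flavoprotein subunit, at 8.54, 15.2 and 18.9. Of 16 genes of pyruvate oxidation and the citrate cycle, 1 was called, Mdh2, the mitochondrial malate dehydrogenase, at 21.4, 41.9 and 55 CPM. Dld, the dihydrolipoamide dehydrogenase, was at 26.6, 41.9 and 39.9 CPM and missed the call with shRNA2. Of 13 genes that copy and express mitochondrial DNA 4 were called higher, including Ssbp1, which coats single-stranded mitochondrial DNA, at 7.28, 14.8 and 23.0 CPM, and Mterf4 at 9.68, 18.4 and 17.9. Tfam, the main packaging and transcription factor of that DNA, was not called and stood at 596, 441 and 378 CPM. Ttc19, Etfb, Ssbp1 and Mterf4 were under 10 CPM in shCtrl, so they entered through the hairpin libraries and could not be called lower.

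The small subunit of the mitochondrial ribosome had the most calls, 8 of 25 higher and 1 lower, with medians of log2 0.51 and 0.74. Mrps24 was at 15.6, 28.5 and 43.0 CPM and Mrps26 at 19.9, 33.1 and 33.3, and the 1 called lower, Mrps36, a protein since placed in the alpha-ketoglutarate dehydrogenase complex, was at 349.6, 227 and 211. Of 7 genes of coenzyme Q synthesis 1 was called, Coq7, the hydroxylase, at 8.66, 19.3 and 24 CPM, while Coq9 was at 10.8, 14.6 and 16.8. Of 14 genes of the mitochondrial sheath and mitochondrial stress 2 were higher, including Hspe1, a matrix chaperone, at 39.2, 74.3 and 115 CPM, and 1 was lower, Asns, the asparagine synthetase, at 119.8, 60.0 and 55.2. Over the 7 lists 22 genes were called higher and 2 lower. With factors from the trimmed mean of M values the counts were 5 and 7, so the direction of this balance depended on the scaling.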

How the data were processed

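Per the labels' protocols, red germ cells were sorted from injected testes and 10x Genomics 3′ libraries were made with the version 2 kit. Per the submitters' processing notes, Cell Ranger 1.3.1, Seurat 2.0.0 and the mm10 build were used. The authors deposited natural log (ln) values of UMIs scaled to 10000 per cell, with 1 added. Undoing the log and dividing by each cell's smallest non-zero value recovered whole UMIs: 100.0% of 20140203 non-zero values were whole within 0.01. Columns were matched to shRNA1 and shRNA2 by the last digit of their names alone. No cell was removed, except where cells were thinned to 10000 UMIs, which left out those with fewer. Doublets were not called.

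UMIs were summed per library and class (40405313, 38330044 and 44640351 per library), scaled to 1000000, and compared as log2 of CPM plus 1. Genes were compared at a mean of 10 CPM and 30 UMIs, and classes with at least 50 cells per library. Clusters came from scanpy 1.11.5 under Python 3.11.15 (2000 variable genes without the members, 30 components, 15 neighbours, Leiden resolution 0.8 with leidenalg 0.10.2, 19 clusters, no batch correction), and a cluster was named where at least 3 listed markers were raised. The call rule and both factor methods were tested on simulated data. Near-identical copies were searched with blastn 2.17.0 in the GENCODE transcripts (98% identity over 90 of the last 300 bases) and found for 23 members, whose levels are uncertain, among them Cox6c, Ndufb11, Uqcr11, Cox7c and 6 mitochondrially encoded genes. Atp5o overlaps Donson, Ndufb8 Gm20538 and Ndufb2 Gm42420.

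The members and lists were chosen with earlier results of these data known. Genes named are every mitochondrially encoded member, the complex IV pairs, X-linked members, the 5 nuclear members per direction with the largest smaller fold, the 5 with the widest span over classes, the 2 most abundant of each complex, 2 per list and fixed related pairs. Cox6a2, Cox7a1, Mrps36 and Tfam were named after their values were seen. Alternatives were 4 scalings, the filter, the pseudocount, a 2-fold call, other cell sets, thinning, ln means and 2 other clusterings. The design foresaw no test, because each group is 1 library.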

Additional observations from a re-analysis of the deposited data

Results flagged for a closer look

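In 6 mitochondrially encoded members both hairpins lay at least 1.5-fold on one side of shCtrl in spermatids and at least 1.5-fold on the other side in the cells with Sertoli and late spermatid RNA; the difference between the classes was not tested. With clusters weighted to the mix of shCtrl no such member was called in either spermatid class. In round spermatids, elongating spermatids and those mixed cells in turn, the log2 folds with shRNA1 were 1.46, 0.99 and -1.28 for mt-Nd1, 1.54, 1.08 and -1.36 for mt-Nd2, 1.36, 1.08 and -1.58 for mt-Co1, 1.06, 0.71 and -1.51 for mt-Atp6, and 1.49, 1.10 and -1.22 for mt-Nd4. With shRNA2 they were 0.87, 0.67 and -0.84 for mt-Nd1, 0.83, 0.91 and -0.72 for mt-Nd2, 0.63, 0.90 and -1.03 for mt-Co1, 0.69, 0.79 and -0.69 for mt-Atp6, and 0.72, 0.93 and -0.69 for mt-Nd4. For mt-Nd5 this held for elongating spermatids (0.87 and 0.77) against the mixed cells (-1.35 and -0.61). The mixed cells held a summed mitochondrially encoded share of 0.613% in shCtrl, above the 0.148% and 0.153% of the spermatid classes. Per cell, the median share of the mixed cells was 0.191%, 0.143% and 0.162%, so the libraries lay closer together than in the sums. Their leukocyte markers summed to 319.97, 289 and 420.5 CPM, beside 111, 99.3 and 182 in round and 271, 263 and 393 in elongating spermatids, and their Sertoli markers to 1056, 530.2 and 560 CPM; the part of either in the result was not tested.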

How the results depend on the processing

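No paired analysis was possible because each group is 1 library. No library could be left out, so no result has a replicate check. Of 144 recomputations, 76 were the same within counting error or within 1.5 times, and 68 moved, and the cause was not tested. For median folds the counting error used was that of the group's summed UMIs, which is not an interval of the median. Counts that stayed at 0 were among the same. No median fold changed sign. Counts and shares could not be labelled reversed, since they cannot be negative. Over all cells, 11 of 12 mitochondrially encoded and 12 of 78 nuclear members were called higher. These counts became 4 and 3 with TMM factors (trimmed mean of M values), 3 and 3 with median-of-ratios factors, 2 and 3 at 2-fold (1.23% of all genes), 1 and 1 with classes weighted to the mix of shCtrl, 1 and 0 with clusters so weighted, and 7 and 2 with mean ln values. The first was 7 without cells over 5% mitochondrially encoded UMIs, and the second was 7 with a total that leaves out the 20 most abundant genes, 5 in germ cells alone and 21 in cells thinned to 10000 UMIs. None was called lower under any of these settings. Thinning left out 70, 530 and 332 cells that held fewer than 10000 UMIs, so its set of cells differs.

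The mitochondrially encoded medians (log2, shRNA1 then shRNA2) were 0.50 and 0.78 with TMM factors, 0.50 and 0.73 with median-of-ratios factors, 0.72 and 1.06 without the 20 most abundant genes in the total, 0.78 and 1.14 without mitochondrially encoded genes in it, 0.77 and 1.12 without the filter, 0.74 and 1.13 with a pseudocount of 5 CPM, 0.83 and 1.15 in germ cells, 0.46 and 0.34 with classes weighted, 0.69 and 1.13 without cells over 5%, 0.71 and 1.13 after thinning, 0.72 and 1.03 from ln means, and 0.15 and 0.18 with clusters weighted. The nuclear medians in the same order were 0.085 and 0.34, 0.077 and 0.28, 0.30 and 0.61, 0.36 and 0.69, 0.36 and 0.68, 0.34 and 0.66, 0.32 and 0.61, 0.17 and 0.24, 0.36 and 0.67, 0.42 and 0.75, 0.20 and 0.38, and 0.12 and 0.21. The mitochondrially encoded share was 0.429%, 0.637% and 0.913% without cells over 5%, and its median over cells 0.0772%, 0.287% and 0.535%.

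The 2 spermatid classes with a mitochondrially encoded median of 1.5-fold or more with both hairpins became 0 with clusters weighted. They stayed 2 under the 4 scalings, without the filter, with a pseudocount of 5 CPM and under both other clusterings. Listed pathway genes called higher and lower went from 22 and 2 to 5 and 7 with TMM factors and 5 and 7 with median-of-ratios factors. The class orders, the testis form shares and the X-linked levels gave the same counts within 1.5 times under both other clusterings. At the finer clustering, the spermatogonial clusters held 28 and 17 shCtrl cells, under the minimum of 50 for a class. Depth limits mt-Nd6, mt-Atp8 and mt-Nd4l, and the general forms in late cells, which have few UMIs.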
